A study of Mus musculus with 5 samples.

Results

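CD4 T cells were examined in a single-cell RNA sequencing (scRNA-seq) data set of mouse kidney. They were 178 of the 79202 cells that passed the quality limits of at least 500 unique molecular identifiers (UMIs, one for each captured RNA molecule), at least 200 genes and at most 25% of UMIs on mitochondrial genes. The cells were chosen by measured values. A member had at least 1 UMI of Cd3d, Cd3e and Cd3g together and at least 1 UMI of Cd4, no UMI of Cd8a, Cd8b1 or the B cell gene Cd79a, at most 2 UMIs of the myeloid gene Lyz2 and at most 1 UMI of the proximal tubule gene Lrp2. The levels of these genes are therefore a description of the rule.

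The study followed the passage from acute kidney injury (AKI) to chronic disease after unilateral ischemia-reperfusion (UIR), in which the left renal pedicle of male C57BL/6J mice is clamped and released. GEO lists 5 samples, a sham kidney and kidneys taken at days 1, 3, 14 and 28, with 1 sample for each condition, and the protocol ties each kidney sample to 3 mice. No transgene or deletion is given for these mice. The deposited matrix pooled 5 libraries whose numbers the labels do not tie to a condition, so libraries are named by number only, no time point is described, and nothing was tested between libraries. The methods count more matrices than these libraries, several of them from control kidneys, so whether a library holds 1 mouse or several is not settled. The labels give the cell type as "Goblet cell", whereas the cells described here carried T cell genes.

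CD4 T cells are the helper arm of adaptive immunity. Their receptor reads peptides held by class II MHC on other cells, with Cd4 as coreceptor and the Cd3 chains as signalling parts, and they act through cytokines and surface ligands. The main programs are type 1 helper cells (Th1, Ifng and Tbx21), type 2 (Th2, Gata3 and Il4), type 17 (Th17, Il17a and Il17f), follicular helper cells (Tfh, Bcl6 and Cxcr5) and regulatory T cells (Treg, Foxp3). After ischemic kidney injury, helper cells are known as contributors to inflammation and regulatory cells as contributors to repair.

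The CD4 T cells were spread unevenly over the libraries. Library 1 held 67, library 2 held 76, library 3 held 24, library 4 held 11 and library 5 held none. Libraries 1 and 2 thus carried most of the cells, although library 3 had the most cells within the quality limits, 33839 against 10020 and 11313. Among Ptprc-positive cells (leukocytes, which carry the CD45 gene), the 139 CD4 T cells with a Ptprc UMI made up 2.86% (95% exact binomial interval 2.41 to 3.37%). By library the share was 4.92%, 4.26%, 1.13% and 1.78% for libraries 1 to 4. In library 5, 0 of 113 Ptprc-positive cells were CD4 T cells, which allows a share of up to 2.65% by 3 counts and 3.21% by the exact interval, and other counts of 0 are given by 3 counts. These intervals, and all others here, cover counting error only, and fewer cells of a type cannot be told apart from poorer recovery of that type.

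CD8 T cells, gated in the same way with a UMI of Cd8a or Cd8b1 and none of Cd4, numbered 390 by this gate. The ratio of CD4 T to CD8 T cells was 0.456 (0.380 to 0.546). It was 0.456 in library 1, 0.535 in library 2, 0.348 in library 3 and 0.440 in library 4. The intervals of these 4 libraries overlapped, and the widest, in library 4, ran from 0.195 to 0.927. A further 808 cells had a Cd3 UMI but none of Cd4, Cd8a or Cd8b1. The CD4 T count thus depends on detecting 1 gene that is sparsely captured. Of the 178 cells, 146 had exactly 1 Cd4 UMI, 26 had 2 and 6 had 3. The CD8 gate takes either of 2 genes, and Cd8a was in 73.6% and Cd8b1 in 80.5% of its cells. The ratio therefore compares cells as captured by unlike gates, and the part of unequal capture in it was not tested. Within the same limits on Cd79a, Lyz2 and Lrp2, 2 cells had UMIs of both Cd4 and Cd8. Just outside the rule lay 7 cells with Lrp2 at 2 UMIs.

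**Figure D1:**
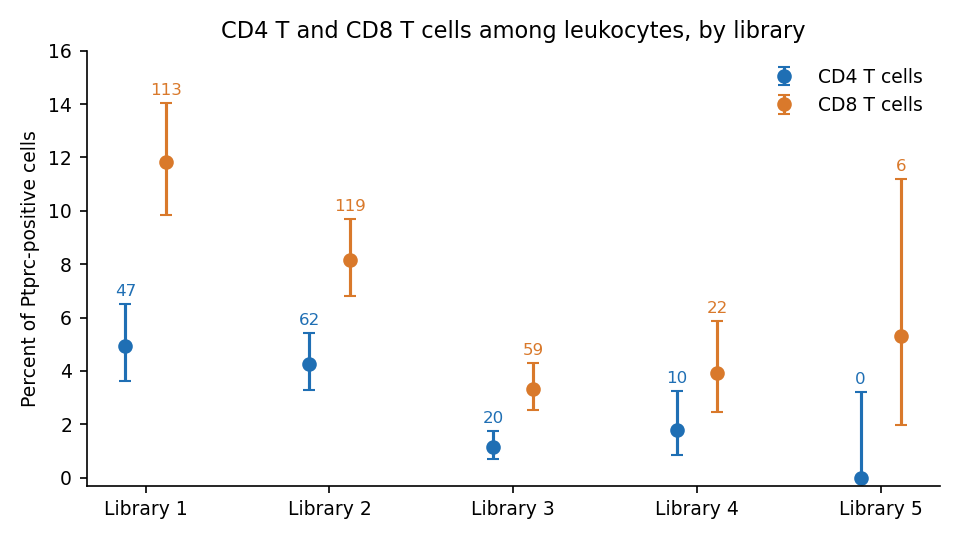
Points give the percent of Ptprc-positive cells that were CD4 T (blue) or CD8 T (orange) in each library on the x axis, with 95% exact binomial intervals, and the number above each interval is the count of cells with a Ptprc UMI. CD4 T cells ranged from 0% in library 5 to 4.92% in library 1 and lay below CD8 T cells in every library.

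Of the genes the rule used, Cd3d was found in 147 cells and Cd3e in 117, as a description. Trac, which encodes the constant region of the T cell receptor alpha chain (GRCm38 chr14:54220521-54224206, plus strand) and was not used by the rule, had a UMI in 122 of 178 cells (68.5%, 61.2 to 75.3%). By library it was found in 49 of 67, 55 of 76, 8 of 24 and 10 of 11 cells, so library 3 had the lowest share. A UMI of Trac, Trbc1 or Trbc2 was present in 176 of 178 cells (98.9%). In proximal tubule cells, gated by at least 5 Lrp2 UMIs and no Cd3 or Ptprc, the same genes were found in 0.478% of 19463 cells. Their median depth was 7996 UMIs per cell, against 1875 in the CD4 T cells. Because this gate removes cells with T cell or leukocyte RNA, its shares of T cell genes can lie below what free RNA leaves: the list of receptor and signalling genes was at 2.68 CPM in these cells and 85.8 CPM in barcodes of 10 to 100 UMIs.

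Markers of other lymphocytes were mixed. Ncr1, Trdc, Klrb1c and Ms4a1 had no UMI in any CD4 T cell, which allows a UMI of each in up to 1.69% of cells. Such limits, here and below, are on detection at this depth and not on expression. Nkg7, however, was in 75 cells, and the B cell list had a UMI in 46 (25.8%), through Ighm in 41 and Igkc in 8. Ighm was in 17.7% of CD8 T and 0.339% of proximal tubule cells, against 23.03% of CD4 T cells. Only 5 cells had a UMI of Trdc or a gamma chain constant gene, against 54 of 390 CD8 T cells. The signalling chain of the receptor differed by less than 2 times between CD4 T and CD8 T cells, with Lck (the kinase that Cd4 carries) at 350 and 423 CPM (the UMIs of a gene per 1000000 UMIs, summed over the cells of a group), Lat at 431 and 441 CPM and Zap70 at 108 and 106 CPM. Cd5, an inhibitory receptor whose level follows receptor signal strength, was higher, at 338 against 108 CPM.

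RNA of kidney cells was also present. Proximal tubule markers (Lrp2, Slc34a1, Kap, Gpx3, Miox and Fxyd2) had a UMI in 173 of 178 CD4 T cells, and summed to 7324 CPM. The same sum was 5700 CPM in CD8 T cells, 8543 CPM in NK cells, 56744 CPM in proximal tubule cells and 31326 CPM in barcodes of 10 to 100 UMIs, which stand for free RNA. In the median CD4 T cell these genes took 0.259% of UMIs, and by library the median was 0.224%, 0.146%, 0.925% and 0.534%. The medians were thus higher in libraries 3 and 4, while the summed levels, 11251, 3314, 11206 and 5840 CPM, put library 1 level with library 3. Few cells held much of the sum: the 7 cells above 8000 UMIs held 33.4% of it and 23.3% of all UMIs of the CD4 T cells, and the deepest, at 27071 UMIs, held 5.75% of all UMIs.

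The myeloid list had a UMI in 56 of 178 cells (31.5%), and 12 cells had more than 2 UMIs of the list without Fcer1g and Tyrobp. Cst3, which is also in 75.3% of proximal tubule cells, was in 43. S100a8 and S100a9, the abundant neutrophil alarmins, gave 422 UMIs in CD4 T cells, of which 418 lay in 3 cells. Clec4e, which encodes Mincle, the receptor the study is about, had 17 UMIs in 2 CD4 T cells, 13 of them in 1 cell, and both cells also had UMIs of S100a8 or S100a9. The other 176 cells had none. The share of CD4 T cells with a Clec4e UMI was 1.12% (0.136 to 4.00%), against 1.03% of CD8 T cells and 0.606% of proximal tubule cells, and so was not distinguishable from those at this depth. The part that other cells' RNA plays in single genes was not tested, and doublets were kept, since no doublet caller was run.

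**Figure D2:**
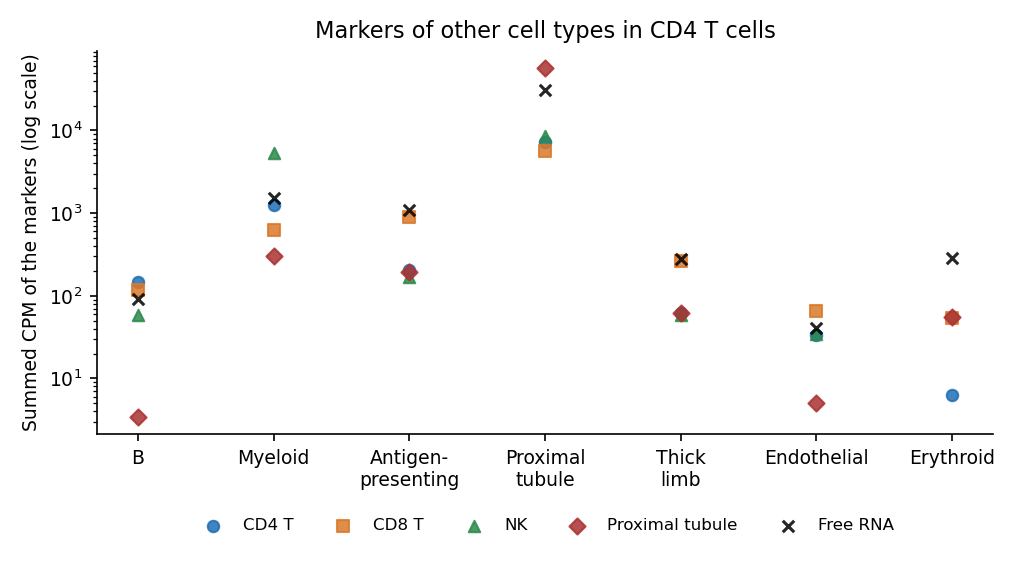
Each column is a list of markers of another cell type, and the y axis (log scale) gives the summed CPM of its genes in CD4 T, CD8 T, NK and proximal tubule cells and in free RNA. Proximal tubule markers reached 7324 CPM in CD4 T cells against 56744 CPM in proximal tubule cells, and erythroid markers were lowest in CD4 T cells among the groups that had any.

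Regulatory T cells were the first subset examined. Foxp3 (chrX:7573644-7595245, plus strand), the master transcription factor of the lineage, had a UMI in 10 of 178 CD4 T cells (5.62%, 2.73 to 10.1%). These were 4 of 67 cells in library 1 and 6 of 76 in library 2. None of 24 and none of 11 cells in libraries 3 and 4 had one, which allows up to 12.5% and 27.3%. No CD8 T cell of 390 had a Foxp3 UMI, which allows up to 0.769%, and 1 of 19463 proximal tubule cells had one. With each cell thinned to 1000 UMIs, the share in CD4 T cells was 2.42% of 165 cells. Il2ra, the high-affinity chain of the interleukin-2 receptor, was found in 5 cells and Ikzf2 (Helios) in 34, so that 38 cells (21.3%, 15.6 to 28.1%) had at least 1 of the 3 genes. Ikzf2 alone had a UMI in 5.24% of proximal tubule cells, so part of this share can be background.

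Genes of the wider Treg list were then set against CD8 T cells. CD4 T and CD8 T cells were compared by the log2 ratio of summed CPM among the 3513 genes with at least 50 UMIs over both groups, and a gene past 2 times (a log2 ratio of 1) was called. Over all genes 124 were called higher in CD4 T cells (3.53%) and 83 lower (2.36%), and the median log2 ratio was 0.05. Of the 18 genes on the Treg list, 10 had enough UMIs, and 9 of these were called higher and none lower, with a median of 1.88. Since a gene passes the limit on UMIs more easily when it is high in either group, these counts describe the genes that passed and not the whole list. The same holds for the other lists below of which only a part passed. Summed over all 18 genes, the list was at 2301 CPM in CD4 T and 620 CPM in CD8 T cells. In the 808 cells with a Cd3 UMI but none of Cd4, Cd8a or Cd8b1, it was at 2191 CPM. The level of the list was thus not particular to the CD4 T cells.

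Tnfrsf4 (OX40, a costimulatory receptor of the tumor necrosis factor family, chr4:156013843-156016612, plus strand) stood out. It had a UMI in 23 of 67, 25 of 76, 5 of 24 and 4 of 11 CD4 T cells in libraries 1 to 4, and its level was 344, 477, 193 and 215 CPM. In CD8 T cells the level was 9.72 and 17.4 CPM in libraries 1 and 2, and no UMI was found in libraries 3 and 4. Every library with CD4 T cells thus had more Tnfrsf4 in CD4 T than in CD8 T cells, and the log2 ratio over all libraries was 4.96 (4.12 to 5.94). Thinned to 1000 UMIs per cell, 21.2% of CD4 T and 0.265% of CD8 T cells had a UMI.

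Tnfrsf18 (GITR), a related receptor encoded next to Tnfrsf4 on the same strand (chr4:156026164-156028895), had a UMI in 73 CD4 T cells. Its level in libraries 1 to 4 was 293, 388, 248 and 394 CPM, against 123, 74.4, 56.7 and 101 CPM in CD8 T cells. The groups did not overlap, and the log2 ratio was 1.91 (1.53 to 2.30). Ctla4, the inhibitory receptor that competes for costimulatory ligands (chr1:60887000-60915832, plus strand), was at 261, 370, 96.6 and 107 CPM against 123, 67.0, 51.0 and 56.3 CPM, with a log2 ratio of 1.80 (1.39 to 2.22). Within each library its level was higher in CD4 T cells, while across libraries the values overlapped.

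Izumo1r (folate receptor 4, found on regulatory and anergic CD4 T cells) had a UMI in 14, 17, 0 and 3 cells of libraries 1 to 4 and a log2 ratio of 3.38 (2.38 to 4.52), or 2.62 without library 2 and 4.07 without library 3. Ikzf2 had a log2 ratio of 1.85 (1.41 to 2.31), Tnfrsf9 (4-1BB, an activation receptor) of 2.20 (1.34 to 3.13), Capg (an actin-capping protein) of 1.47 (0.96 to 1.99) and Icos (a costimulatory receptor) of 1.04 (0.76 to 1.33). Batf, a transcription factor of activated T cells, missed the call at 0.99 (0.20 to 1.76). Library 3 went the other way for both Ikzf2, at 27.6 CPM against 34.0 CPM in CD8 T cells, and Izumo1r, at 0 against 22.7 CPM. With 3 counts in place of that 0, as plotted among the ratios, the library 3 value of Izumo1r is 0.87.

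Areg (amphiregulin, an epidermal growth factor family ligand that regulatory T cells use in tissue repair, chr5:91139599-91148432, plus strand) had 52 UMIs in 18 CD4 T cells and 1 UMI in CD8 T cells. The log2 ratio was 6.78 (4.24 to 12.1), an interval that a single CD8 T UMI makes wide. The positive cells were 5 of 67 in library 1 and 13 of 76 in library 2, and none of 24 and none of 11 in libraries 3 and 4. Of the 18 cells with Areg, 11 also had Ikzf2 and 3 had Foxp3, while 23 of the 160 cells without Areg had Ikzf2.

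The promoters of 3 genes that were higher in CD4 T than in CD8 T cells are shown, from 250 bases before to 50 bases after the RefSeq start (GRCm38.p6). Areg is shown because 52 of its 53 UMIs over both groups were in CD4 T cells, and its capitals mark a cyclic AMP response element, TGACGTCA, that lies 61 to 54 bases before the start. Nfkbia and Rel, an inhibitor and a subunit of NF-kB, are shown because they belong to the genes described next, and their capitals mark matches to the NF-kB motif (GGGA and CC with any 4 bases between them) on either strand. The genes were chosen after their values were seen.
Areg, chr5:91139349-91139648, plus strand: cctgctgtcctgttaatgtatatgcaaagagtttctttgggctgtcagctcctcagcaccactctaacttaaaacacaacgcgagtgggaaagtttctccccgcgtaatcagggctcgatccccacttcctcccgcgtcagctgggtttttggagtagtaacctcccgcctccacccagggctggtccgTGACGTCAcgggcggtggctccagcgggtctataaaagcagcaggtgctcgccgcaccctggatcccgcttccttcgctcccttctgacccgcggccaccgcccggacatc
Nfkbia, chr12:55492598-55492897, minus strand: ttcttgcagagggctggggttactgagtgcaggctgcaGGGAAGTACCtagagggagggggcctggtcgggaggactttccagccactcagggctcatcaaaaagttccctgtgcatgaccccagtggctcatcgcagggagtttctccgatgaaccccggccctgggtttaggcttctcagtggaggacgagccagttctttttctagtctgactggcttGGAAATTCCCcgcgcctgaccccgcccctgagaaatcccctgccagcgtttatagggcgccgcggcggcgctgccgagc
Rel, chr11:23770920-23771219, minus strand: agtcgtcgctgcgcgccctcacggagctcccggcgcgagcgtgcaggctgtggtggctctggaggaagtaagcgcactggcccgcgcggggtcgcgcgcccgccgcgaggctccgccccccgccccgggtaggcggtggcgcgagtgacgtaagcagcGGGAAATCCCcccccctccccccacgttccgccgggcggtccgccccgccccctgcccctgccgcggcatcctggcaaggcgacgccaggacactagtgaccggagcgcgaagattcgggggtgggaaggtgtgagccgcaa

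The response element was in 1.79% of 32851 mouse promoter windows of this length, in 3.51% of windows of the genes compared and in 2.46% of those of the genes called higher. The NF-kB motif was in 20.7% of all windows. Among the genes called higher in CD4 T cells, 96 of 124 had a window, and these held the NF-kB motif in 21.3% of 122 windows, close to the share of all windows and below the 25.1% of windows of the genes compared. Of 85 windows of the genes called lower, 27.1% held the NF-kB motif and 3.53% the response element. The windows of Tnfrsf4, Tnfrsf18 and Ctla4 held neither motif. A match describes the letters only.

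Nfkbia, of the immediate early list, was at 758, 599, 731 and 430 CPM in libraries 1 to 4 against 262, 268, 261 and 371 CPM in CD8 T cells, with no overlap, and its log2 ratio was 1.30 (1.06 to 1.54). Nfkb1 and Rel had log2 ratios of 1.69 (1.24 to 2.15) and 1.56 (1.11 to 2.02), and were named after their values were seen. Gadd45b, a stress-response gene, had a log2 ratio of 1.97 (1.64 to 2.31), and Dusp10, a phosphatase of stress kinases, of 2.29 (1.71 to 2.89). Both were higher in CD4 T cells in libraries 1 to 3, the libraries where each group had at least 20 cells. That agreement was a condition for naming them by the size of their ratio. In library 4, Gadd45b was lower, at 35.8 against 90.0 CPM.

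Of the 12 immediate early genes, 4 were called higher and none lower, with a median log2 ratio of 0.77. The 4 were Fos at 1.26, Egr1 at 1.09, Nr4a1 at 1.02 and Nfkbia. Fos and Egr1 rested on few cells: 131 of 349 Fos UMIs and 78 of 140 Egr1 UMIs were in 1 cell each, and the share of cells with a Fos UMI was 29.8% in CD4 T and 31.0% in CD8 T cells. Nr4a1, an early target of receptor signalling, was more widely spread, in 62 of 178 CD4 T cells and 78 of 390 CD8 T cells, though in library 3 it was lower, at 69.0 against 113 CPM. Junb had a UMI in 166 of 178 cells and a log2 ratio of 0.81 (0.71 to 0.91). Since tubule cells also express these genes (Fos in 78.5% and Junb in 66.4% of proximal tubule cells), the part of free RNA in their levels was not tested.

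Surface ligands of the activation and cytokine lists came next. Cd40lg (CD40 ligand, the signal that helper cells give to B cells and dendritic cells) had 44 UMIs in 31 CD4 T cells and 2 UMIs in CD8 T cells, and at 46 UMIs in all stayed under the limit for a call. The positive cells were 10 of 67, 19 of 76, 2 of 24 and 0 of 11 in libraries 1 to 4, or 17.4% in all (12.2 to 23.8%), against 0.513% of CD8 T cells. In library 4, the only cell of either kind with a UMI was a CD8 T cell. Tnfsf8 (CD30 ligand) was at 140, 117, 13.8 and 0 CPM against 6.48, 2.48, 5.67 and 0 CPM, and had a log2 ratio of 4.67 (3.22 to 6.60). Tnfsf11 (RANK ligand) had 18 UMIs against 8 in the larger CD8 T group, with a log2 ratio of 2.25 (0.98 to 3.66), and was too sparse for a call. Among the 13 genes of the cytokine list, 4 had enough UMIs, and Tnfsf8 was the only one called. Of the secreted cytokines, Ifng had a UMI in 40 CD4 T cells, Tgfb1 in 35, Tnf in 11 (6.18%, 3.12 to 10.8%), Il2 in 9 and Il10 in 3.

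**Figure D3:**
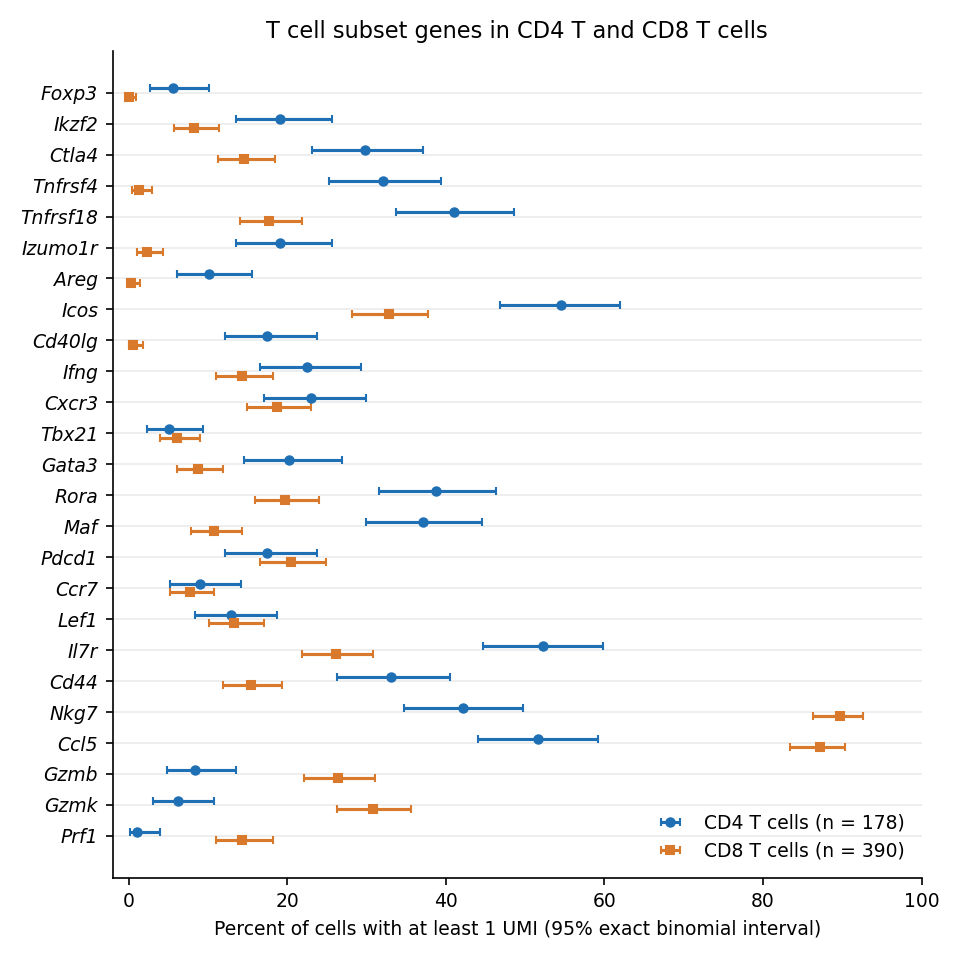
The x axis gives the percent of cells with at least 1 UMI of each gene in 178 CD4 T cells (blue circles) and 390 CD8 T cells (orange squares), with 95% exact binomial intervals. Tnfrsf4 was found in 32.0% of CD4 T and 1.28% of CD8 T cells, and Nkg7 in 42.1% and 89.7%.

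Genes of Th1 cells were found in both CD4 T and CD8 T cells. A UMI of Ifng or Tbx21 was found in 46 cells (25.8%, 19.6 to 32.9%), against 18.7% (14.97 to 22.9%) of CD8 T cells, and of Ifng, Tbx21 or Cxcr3 in 74 (41.6%, 34.2 to 49.2%), against 34.1% (29.4 to 39.0%) of CD8 T and 0.0565% of proximal tubule cells. Ifng, the main Th1 cytokine (chr10:118441046-118445892, plus strand), was found in 40 cells, Cxcr3, the chemokine receptor of Th1 cells, in 41, and Tbx21, the lineage factor, in 9. Ifng was at 255, 145, 55.2 and 107 CPM in libraries 1 to 4 against 120, 99.2, 28.4 and 56.3 CPM in CD8 T cells, with a log2 ratio of 0.91 (0.45 to 1.37) that missed the call. Of the 5 Th1 genes with enough UMIs, none was called higher, and Ccl5, which CD8 T cells also make, was called lower.

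Th2 cytokines were seldom detected. Gata3, the Th2 factor, which also serves regulatory and memory T cells, had a UMI in 36 cells (20.2%) and a log2 ratio of 1.89 (1.28 to 2.52), with 17 of 67, 12 of 76, 5 of 24 and 2 of 11 cells in libraries 1 to 4. Il4 and Il5 had no UMI in any of the 178 cells, which allows up to 1.69% each, and Il13 had 2 UMIs in 1 cell. Ccr4, a homing receptor of Th2 and regulatory cells, had 16 UMIs in 13 CD4 T cells and 1 UMI in CD8 T cells, and Il1rl1 (ST2, the interleukin-33 receptor) 12 UMIs in 8 cells and 1 UMI. Both were under the limit for a call.

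Th17 and follicular sets were sparse as well. Il17a, Il17f or Il23r had a UMI in 4 cells (2.25%, 0.616 to 5.65%), against 0.769% of CD8 T cells and 0.108% of proximal tubule cells. Il17a was in 3 CD4 T cells, 2 in library 1 and 1 in library 2, and in no proximal tubule cell. Cxcr5, Bcl6 or Il21 had a UMI in 5 cells (2.81%), below the 18.8% of proximal tubule cells. Rora, a nuclear receptor shared by Th17, Th2 and regulatory cells, had a log2 ratio of 1.37 (1.00 to 1.74), but also a UMI in 41.4% of proximal tubule cells. Maf, a factor of Th2, Th17 and follicular cells, had one of 2.19 (1.70 to 2.69), and a UMI in 85.3% of proximal tubule cells. Maf was in 37.1% of CD4 T and 10.8% of CD8 T cells, and the part of tubule RNA in these values was not tested.

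The naive and recirculating list had a UMI in 138 of 178 CD4 T cells (77.5%), with Il7r in 93. Ccr7 (the lymph node homing receptor) had a UMI in 16 and Lef1 (a transcription factor of naive cells) in 23 of 178 cells. Together they marked 32 cells (17.98%, 12.6 to 24.4%), against 17.7% of CD8 T cells and 0.231% of proximal tubule cells, so no difference from CD8 T cells was detectable at this depth. By library they were 9 of 67, 14 of 76, 6 of 24 and 3 of 11 cells. Of the 10 naive genes with enough UMIs, 1 was called higher and 1 lower: Il7r, the survival receptor for interleukin-7, was at 1.10 (0.82 to 1.38), and Dapl1 at -1.53 (-2.82 to -0.44). Of the activation and memory genes, Cd44, the adhesion receptor of activated cells, was in 59 cells (log2 ratio 1.22, 0.73 to 1.71), S100a4 in 83 and Cxcr6, a receptor of tissue-resident cells, in 43.

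Markers of different programs were also counted in the same cells. The Treg genes used here were Foxp3, Il2ra and Ikzf2, the Th1 genes Ifng, Tbx21 and Cxcr3, and the naive genes Ccr7 and Lef1. Of the 178 cells, 20 had only Treg genes among these 8, 52 only Th1 genes and 14 only naive genes. The Treg and Th1 genes met in 12 cells, the Th1 and naive genes in 12 and the Treg and naive genes in 8, and 64 cells had none of the 8 genes. The pairs are not exclusive, since a cell with genes of all these programs was counted in each pair. Nkg7, a granule protein of killer and Th1 cells, was in 27 of 40 cells with Ifng (67.5%, 50.9 to 81.4%) and in 48 of 138 without (34.8%, 26.9 to 43.4%), at median depths of 1991 and 1849.5 UMIs. Ctla4 was in 14 of 75 cells with Nkg7 (18.7%, 10.6 to 29.3%) and 39 of 103 without (37.9%, 28.5 to 48.0%), intervals that overlapped. These differences were not tested, since cells of a library are not replicates.

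The cytotoxic list ran the other way. Of its 11 genes, all with enough UMIs, none was called higher and 10 were called lower in CD4 T cells, with a median log2 ratio of -2.95. Summed, the list was at 2159 CPM in CD4 T and 14227 CPM in CD8 T cells. In the 808 cells with a Cd3 UMI but none of Cd4, Cd8a or Cd8b1, it was at 3588 CPM. Gzma, a granzyme (chr13:113093825-113100981, minus strand), had 13 UMIs in 3 CD4 T cells, all in library 3 and 10 of them in 1 cell, against 612 UMIs in CD8 T cells (log2 ratio -4.47, -5.39 to -3.69). Without library 2 the ratio was -2.61. Without library 3 no Gzma UMI was left in CD4 T cells, and 3 counts in place of the 0 gave -6.47. Gzmk was at 38.2, 23.4, 13.8 and 35.8 CPM in libraries 1 to 4 against 324, 201, 28.4 and 214 CPM in CD8 T cells, lower in each of the 4 libraries, with a log2 ratio of -2.91 (-3.84 to -2.10). Prf1 (perforin) had 2 UMIs against 65, and Klrd1 (CD94) 3 UMIs in 1 cell against 141. Gzmb was lower in the pooled comparison, at -3.18 (-3.75 to -2.66), but in library 3 it was at 138 CPM against 85.1 CPM in CD8 T cells.

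Ccl5, a chemokine of effector T cells, was present in both groups at unequal levels. It had a UMI in 92 CD4 T cells (51.7%) and 340 CD8 T cells (87.2%), and the summed level was 1265 and 9755 CPM (log2 ratio -2.95, -3.07 to -2.83). Nkg7 was in 42.1% against 89.7% of cells, and thinned to 1000 UMIs in 30.3% and 80.7%. Runx3, the factor that silences Cd4 in the CD8 lineage, was at -1.24 (-1.81 to -0.71), and Zbtb7b (ThPOK), which directs the CD4 lineage, had 15 UMIs against 12, too few for a call. Cd160, an inhibitory receptor, was at -3.69 (-5.34 to -2.44), while Pdcd1 (PD-1) was at -0.11 (-0.56 to 0.32) and was found in 31 CD4 T cells. Lag3, Havcr2 and Tigit, which mark exhausted T cells together with Pdcd1, had a UMI in 1 cell each.

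**Figure D4:**
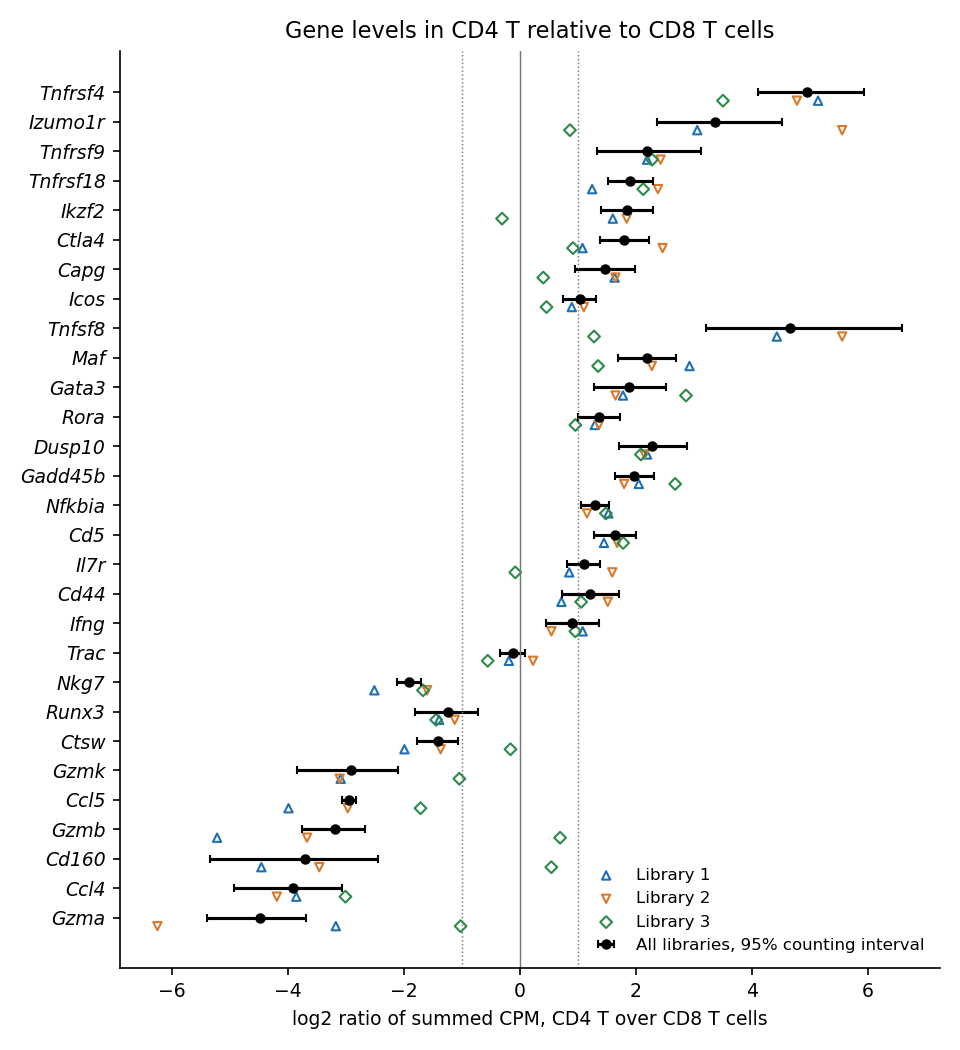
The x axis gives the log2 ratio of summed CPM in CD4 T over CD8 T cells for genes chosen from the lists and the largest differences. Black points with 95% counting intervals cover all libraries, coloured marks are libraries 1 to 3, a group with no UMI is set at 3 counts, and dotted lines mark 2 times. Tnfrsf4 was at 4.96 and Gzma at -4.47, and Gzmb was above 0 in library 3.

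Some of the largest ratios came from single cells. Tagln, a smooth muscle protein, was at 6.78, but 239 of its 260 UMIs were in 1 cell. Without library 1 it was at 3.13, and without cells of more than 2 myeloid UMIs at 0.99. Ifitm1, at 2.31, had 27 of 42 UMIs in 1 cell, and was at 0.63 without library 3. H2-Aa, a class II MHC gene, was at -3.32, with 7 UMIs in CD4 T cells against 148 in 12 CD8 T cells, and all 4 class II genes of the antigen-presenting list with enough UMIs were called lower. Cd74 was in 34 CD4 T cells (19.1%) and 35 CD8 T cells (8.97%), and the summed list was higher in CD4 T cells in libraries 1 and 4, at 223 against 120 and 107 against 78.8 CPM. Without cells of more than 2 myeloid UMIs H2-Aa was at 0.58. The thick limb markers Umod and Slc12a1 were also called lower, at -2.08 and -2.18, although Umod was higher in library 3, at 166 against 119 CPM, and the shares of cells did not follow, with Umod in 8.99% of CD4 T and 6.41% of CD8 T cells and Slc12a1 in 2.81% and 1.54%. Of the 5 myeloid markers with enough UMIs, S100a8 and S100a9 were called higher, at 3.81 and 3.14, and Fcer1g lower, at -1.22. None of the 5 proximal tubule markers with enough UMIs was called. The part of these cells' RNA in the ratios was not tested.

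The remaining genes named for the size of their ratio were picked among genes with the same direction in libraries 1 to 3 where measured. That agreement was a condition of the choice. Ramp3, a receptor activity-modifying protein, was at 2.85 (1.99 to 3.79) and found in 27 CD4 T cells. Ccl4, a chemokine of effector cells, was at -3.91 (-4.93 to -3.06), Cd7, a surface protein of T and NK cells, at -2.98 (-3.95 to -2.14), Gpr18, a lipid receptor, at -3.69 (-5.997 to -2.09) and Tm6sf1 at -3.14 (-5.46 to -1.52). Gpr18 was at -4.57 without library 1, and Tm6sf1 at -4.57 without library 3. Mki67 or Top2a, genes of dividing cells, had a UMI in 29 CD4 T cells (16.3%, 11.2 to 22.6%) and 12.6% of CD8 T cells, beside 4.04% of proximal tubule cells. None of 7 cycling genes, 5 interferon-stimulated genes or 84 ribosomal protein genes was called in either direction.

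Levels also differed among libraries within the CD4 T cells, and 4 genes chosen after their values were seen show the size of it. Ifng was found in 34.3% of the cells of library 1 (23.2 to 46.9%), 15.8% of library 2 (8.43 to 25.96%), 12.5% of library 3 and 18.2% of library 4. Thinned to 1000 UMIs, the shares were 24.6%, 9.46%, 4.35% and 0%. Library 1 thus had the highest share, with an interval that overlapped that of library 2. Ltb (lymphotoxin beta, which shapes lymphoid tissue) went the other way, in 41.8% of library 1 (29.8 to 54.5%) and 75.0% of library 2 (63.7 to 84.2%), or 22.8% and 55.4% when thinned. Tgfb1, a cytokine of regulation and fibrosis, was in 7.46%, 26.3%, 29.2% and 27.3% of cells of libraries 1 to 4, or 3.51%, 14.9%, 17.4% and 9.09% when thinned. Txk, a T cell kinase, was in 4 of 67, 15 of 76 and 12 of 24 cells of libraries 1 to 3 and in none of 11 in library 4, which allows up to 27.3%. Thinned, its shares in libraries 1 to 3 were 1.75%, 10.8% and 26.1%.

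Median depth was 1685, 2141.5, 2068.5 and 2126 UMIs in libraries 1 to 4, so library 1 was the shallowest. CD8 T cells of libraries 1 and 2 varied alike for Ltb, in 43.5% and 71.8% of cells, and for Tgfb1, in 4.08% and 24.6%. For Ifng they did not, with 13.6% and 17.6%. In libraries 3 and 4, Ltb was in 44.9% and 76.0% of CD8 T cells and Tgfb1 in 10.1% and 32.0%. Txk also rose over libraries 1 to 3 in CD8 T cells, at 16.3%, 24.6% and 34.8%, and was at 32.0% in library 4. GEO gives 1 sample for each condition, and what a library holds is not settled, so no spread between mice can be given for these values.

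**Figure D5:**
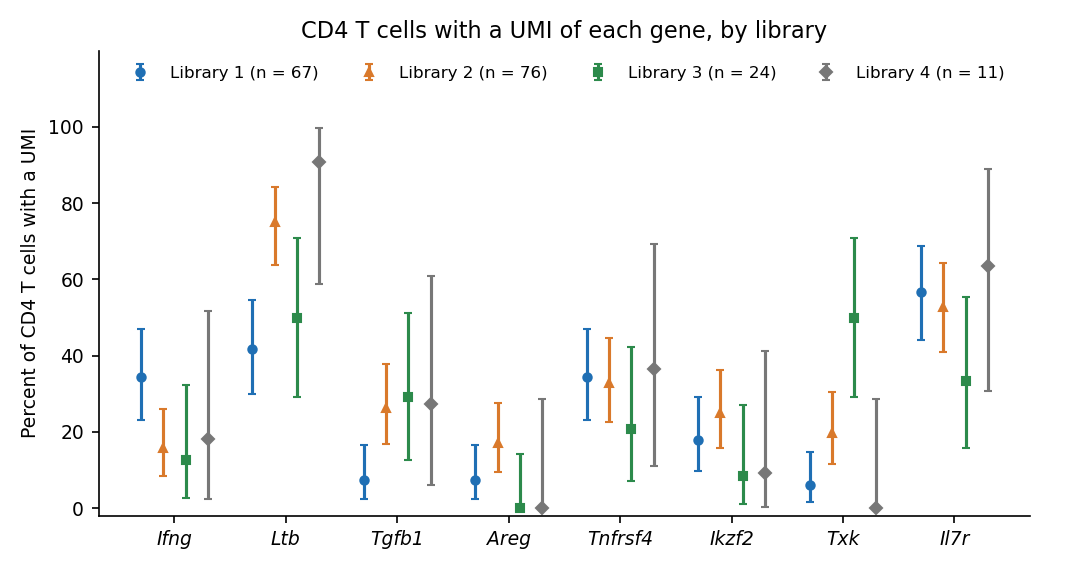
The y axis gives the percent of CD4 T cells of libraries 1 to 4 (67, 76, 24 and 11 cells) with a UMI of each gene on the x axis, with 95% exact binomial intervals. Ifng was highest in library 1 at 34.3% and Ltb was 41.8% in library 1 against 75.0% in library 2.

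Within the CD4 T cells, the 10 Foxp3-positive cells, selected on their Foxp3 UMIs, were set against the 168 others. Their median depth was 2285.5 UMIs against 1875, and they came from libraries 1 and 2 only. Of 1264 genes with at least 50 UMIs, 114 were called higher (9.02%) and 206 lower (16.3%), and with 23432 UMIs in the smaller group many of these rest on a few counts. Of 7 Treg list genes with enough UMIs, 6 were called higher and none lower, with a median log2 ratio of 2.16 against -0.07 over all genes. Ctla4, Ikzf2, Tnfrsf18, Tnfrsf4 and Izumo1r each had a UMI in 7 of 10 Foxp3-positive cells (70.0%, 34.8 to 93.3%). In the 168 others these genes were in 46, 27, 66, 50 and 27 cells.

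Ikzf2 had 33 UMIs in the 10 cells and 83 in the others (log2 ratio 2.93, 2.30 to 3.52), and Tnfrsf4 had 43 and 133 (2.63, 2.10 to 3.13). Tent5a, a poly(A) polymerase, was at 3.36 (2.54 to 4.14), Areg at 2.82 (1.82 to 3.73), Rel at 2.61 (1.88 to 3.29) and Nfkb1 at 2.50 (1.78 to 3.17). With so few cells these ratios moved with the library: without library 2, Tnfrsf4 was at 0.25, Areg at 1.61, Rel at 1.79, Ikzf2 at 4.77 and Tent5a at 5.20, and without library 1, Ikzf2 was at 2.28 and Tent5a at 2.45. Ifng and Nkg7 had no UMI in the 10 cells, which allows up to 30% of such cells, against 40 and 75 of the 168. Among the genes lowest in Foxp3-positive cells, Kap, a proximal tubule marker, had 9 against 1697 UMIs, and most of the 10 lowest had 1 UMI in the Foxp3-positive cells. All 5 proximal tubule markers with enough UMIs were called lower, with a median of -2.43. The median cell gave 0.151% of its UMIs to proximal tubule markers in the Foxp3-positive and 0.281% in the other group, and the 7 cells above 8000 UMIs were all Foxp3-negative.

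Natural killer (NK) cells, gated by Ncr1 and Nkg7 without Cd3, numbered 90 and came mostly from libraries 3 and 4 (38 and 23 cells), whereas the CD4 T cells came mostly from libraries 1 and 2. Cell type and library cannot be told apart in the pooled values, and library 3 was the only one with at least 20 cells of each. Of 1758 genes, 150 were called higher in CD4 T cells (8.53%) and 73 lower (4.15%). Of 16 receptor signalling genes, 9 were called higher and none lower, with a median of 1.54. Cd5, Cd6, Ctla4 and Tnfrsf4 had no UMI in NK cells. By the lower limit of the pooled counts they were at least 3.96, 3.79, 3.67 and 4.11 higher on the log2 scale. With 3 counts in place of the 0, the pooled ratios were 4.28, 4.10, 3.99 and 4.42. In library 3 alone, with the same 3 counts, the ratios were 2.43, 1.34, 1.15 and 2.15. Without library 2, the pooled ratios against 3 counts fell to 3.76, 3.46, 3.22 and 3.76, and without library 3 to 3.62, 3.52, 3.41 and 3.81.

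Of the 11 cytotoxic genes, Nkg7 was left out because the NK gate asks for it. All 8 genes compared were called lower, with a median of -4.98. Prf1 and Klrd1 passed the limit on UMIs through NK cells, with 2 and 3 UMIs in CD4 T cells against 119 and 129. The count thus describes the genes that passed and not the whole list. Gzma was at 27.6 CPM in CD4 T and 7591 CPM in NK cells (log2 ratio -8.10, -9.02 to -7.32), and in library 3 alone the ratio was -5.50. Without library 2 it was -7.22, and without library 3, with 3 counts in place of 0 in CD4 T cells, -9.91. Tyrobp and Fcer1g, the adaptors of activating NK receptors, were at -5.79 and -5.94, at -3.74 and -3.55 in library 3 alone, and at -8.98 and -8.29 with Lyz2 limited to 0 UMIs. The receptor genes Klre1, Klrb1c, Klra4 and Klra9 had no UMI in CD4 T cells, and reads of the Klra family can be split among near-identical copies. Ifi27l2a, an interferon-induced gene, was at 7.03 (4.54 to 12.3), with 357 UMIs against 1. In library 3 alone, with 3 counts in place of 0 in NK cells, it was at 2.66, with Lrp2 limited to 0 UMIs at 5.08, and without library 1 at 5.46.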

How the data were processed

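Kidney cells of 5 samples were profiled with the 10x Chromium 3' v3.1 chemistry. The authors deposited a single matrix of unfiltered UMI counts (32285 genes by 10474594 barcodes) that joined 5 libraries. Reads were aligned to mm10, and UMIs counted with Cell Ranger 6.0, per the submitters' processing notes. Libraries were told apart by the digit that closes each barcode and tied to no condition, so the matrix was treated as 1 pooled sample. No column of other samples' values was present. The libraries held between 82426945 and 139382799 UMIs. Of 102988 barcodes past the UMI and gene limits, 79202 were kept.

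The members, gene lists and comparisons were chosen with earlier results of these data known. Counts were summed per group of cells and given as CPM. Log2 ratios have exact conditional binomial intervals, shares exact Clopper-Pearson intervals, both at 95%, and treat UMIs as independent. No p-value was computed. A gene was compared with at least 50 UMIs over both groups, leaving out the genes of the gates. Genes named were those of the lists and markers and the 10 largest ratios in each direction that kept their direction in every library with at least 20 cells of both groups, with a 0 set at 3 counts, a step on which Izumo1r in library 3 depends (10 in the Foxp3 comparison, which no library reached). A few genes of the lists are not reported here and were left out of the list values. A ratio or share with a count of 0 used 3 counts, which for a share lies a little below the exact upper limit. Cells were thinned with a fixed seed of 1, leaving 165 CD4 T and 378 CD8 T cells. No CD4 T barcode recurred in another library's CD4 T cells, and 4 were quality cells elsewhere. Alternatives changed the quality limits, the gate, the UMI minimum, depth and libraries, and 2 more were chosen after seeing the data. The ratio was tested on simulated data with independent counts. Such data lack the clustering of UMIs in single cells seen for some genes, so the test does not cover it. Positions are from GENCODE vM21 (GRCm38), matched for 241 of 241 genes by gene ID. Python 3.11.15, numpy 2.4.6, scipy 1.17.1 and pandas 2.3.3 were used.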

Additional observations from a re-analysis of the deposited data

How the results depend on the processing

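CD4 T and CD8 T cells came from the same libraries, apart from library 5 with 7 CD8 T and 0 CD4 T cells. Their values are set side by side by library in the report, with no test. Of 127 repeats of 9 counts, shares and ratios, 97 stayed close to the reported value (within 1.5 times for counts, within the counting interval for shares and ratios). The CD4 to CD8 ratio did so in each of its repeats. None of its repeats changed the need for a UMI of Cd4, or of Cd8a or Cd8b1. They therefore do not bear on how the capture of these genes shapes the ratio. Leaving out 1 library gave 102 to 178 CD4 T cells (102 without library 2 and 111 without library 1), 80 to 126 genes higher and 57 to 87 lower than in CD8 T cells, 87 to 144 higher and 51 to 77 lower than in NK cells, and 64 to 139 higher and 82 to 206 lower in Foxp3-positive cells. Without library 1 the counts were 80 higher than CD8 T, 96 higher than NK, and 64 and 109 with Foxp3, and without library 2 they were 87 higher than NK and 82 lower with Foxp3. A minimum of 20 UMIs gave 375 higher and 287 lower than CD8 T, 536 and 241 against NK, and 752 higher with Foxp3. A minimum of 100 UMIs gave 58 and 44, 61 and 31, and 38 and 86. Thinned to 1000 UMIs, the counts were 50 and 36, 46 and 46, and 25 and 52, from fewer genes compared, and the share with Foxp3 was 2.42%. Of the alternatives added after seeing the data, at most 8000 UMIs gave 67 and 118 genes in the Foxp3 comparison and at most 2 myeloid UMIs (without Fcer1g and Tyrobp, which NK cells express) gave 68 and 115.

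Of 779 repeats of named genes, 674 stayed within the counting interval, 93 moved past it with the same sign, and 12 changed sign. Whatever the sign, 16 were under 2 times. In the Foxp3 comparison Klk1, with 434 of 445 UMIs in 1 cell, turned to 2.87 at 10% mitochondrial UMIs, 1.19 without library 3, 0.66 when thinned, 0.68 at 8000 UMIs and 0.80 at 2 myeloid UMIs. Timp3 turned to 0.087 at 10% mitochondrial UMIs, Akr1c21 and Eif2s2 to 0.31 when thinned, and Eif2s2, Dnajb6 and 1810037I17Rik to 1.15, 0.81 and 1.05 without library 2. These values without library 2 have 3 counts in place of a 0 in the Foxp3-positive cells. Any repeat that left that group with no UMI was set in this way, and a value above 0 from it does not show a higher level. Leaving out other libraries gave values down to -4.63 for Klk1, -2.83 for Eif2s2, -2.82 for Dnajb6 and -2.77 for 1810037I17Rik. Each of these genes had 1 UMI in the Foxp3-positive cells. Beyond the use of 3 counts, the cause of these shifts was not tested. H2-Aa turned to 0.58 against CD8 T cells at 2 myeloid UMIs. Depth limits the shares: 146 of 178 cells were called on 1 Cd4 UMI, and cells with none are not counted.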
